A study of Drosophila melanogaster with 20 samples.

Results

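The genes described here encode 10 antimicrobial peptides of Drosophila melanogaster that are classed as targets of the immune deficiency (Imd) pathway. They are the 2 diptericins (DptA and DptB), the 4 attacins (AttA to AttD) and the 4 cecropins (CecA1, CecA2, CecB and CecC). The members were taken by their BDGP6 symbols from a table of raw counts for 17807 genes, and all 10 were found, whatever their level. The libraries came from whole bodies of 2-day-old males of 10 inbred lines of the Drosophila Genetic Reference Panel, each library from 10 pooled flies. Flies of every line were either frozen straight after 30 minutes at 35 ± 1 °C or frozen at the same time without heat, with rearing at 25 °C and 48 hours free of CO2 for all. The labels sort the lines by the outcome of stress preconditioning into beneficial lines (RAL69, RAL93, RAL359, RAL387 and RAL409) and detrimental lines (RAL195, RAL304, RAL335, RAL737 and RAL819). Heat-shocked beneficial, heat-shocked detrimental, unheated beneficial and unheated detrimental flies thus gave 5 libraries each, all without a transgene named in the labels. The main tests omit RAL409, following the study, and so rest on 4 beneficial and 5 detrimental lines. Its values are given apart.

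In flies, bacterial peptidoglycan of the kind found in most Gram-negative bacteria is bound by the receptors PGRP-LC and PGRP-LE, which signal through the adaptor imd and the caspase Dredd to the NF-kappaB factor Relish. Relish then switches on the peptide genes in the fat body, and in gut and other epithelia. Diptericins and attacins are glycine-rich peptides and cecropins are short helical ones, and all are known mainly for action against Gram-negative bacteria. Their transcripts are known to be low in uninfected flies and to rise steeply after infection. No infection is named in the labels.

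Total counts ran from 28.2 to 33.7 M (M stands for 1e+06) per library in heat-shocked beneficial lines, 18.4 to 28.8 M in heat-shocked detrimental lines, 24.7 to 27.9 M in unheated beneficial lines and 22.8 to 28.4 M in unheated detrimental lines. Over the 9 lines, 6 accessory gland genes summed to between 1990 and 4002 CPM (normalised read counts, scaled to a library of 1 M) with heat shock and between 2471 and 4752 CPM without it, against at most 11.0 CPM for 3 yolk protein genes (all flies are labelled male). The labels give no sequencing batch. Each line gave 1 library per treatment, so line and rearing vial cannot be told apart, and in whole bodies fewer cells of a type cannot be told apart from less RNA per cell.

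DptA (FBgn0004240, BDGP6 2R 18865765 to 18866260, plus strand, 1 exon) and DptB (FBgn0034407, 2R 18867391 to 18867895, plus strand, 2 exons) lie side by side. AttA (FBgn0012042, 2R 14747362 to 14748215) and its near-identical copy AttB (FBgn0041581, 2R 14749223 to 14750165) also neighbour each other, with Drosocin (Dro) 648 bp from AttA. AttC (FBgn0041579) stands alone at 2R 13393705 to 13394667, and AttD (FBgn0038530), which lacks a signal peptide, at 3R 17625268 to 17626086. The cecropins share a cluster on 3R: CecA1 (FBgn0000276, 30210874 to 30211273), CecA2 (FBgn0000277, 30212156 to 30212568), CecB (FBgn0000278, 30213315 to 30213797, minus strand) and CecC (FBgn0000279, 30216484 to 30216938). CecA1 and CecA2 encode the same peptide. Reads of AttA and AttB, or of CecA1 and CecA2, may have been assigned to either copy, so their sums are given too. DptB overlaps CG43109 by 48 bp and AttC overlaps CG4744 by 53 bp, both on the opposite strand. How strand was used in counting is not given in the sources used here, so reads in those stretches cannot be told apart.

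All 10 genes were weakly expressed, and CecA1 had the highest median. Scaled by exon length, CecA1 had a median level of 36.7 CPM per kb over the 18 tested libraries (4.51 to 63.2). The next medians were 4.90 for AttC, 3.67 for DptB, 2.87 for AttB, 2.35 for DptA, 2.00 for CecA2 and 1.61 CPM per kb for AttA. CecC (0.429), AttD (0.215) and CecB (0.0966 CPM per kb) closed the order. Neighbours in this order overlapped widely between libraries: AttC ran from 1.03 to 25.6, DptB from 1.61 to 47.4 and DptA from 0.601 to 44.1 CPM per kb. CecA1 was not the highest in every library. In unheated RAL69 it had 37.4 CPM per kb, below DptA (44.1) and DptB (47.4). The neighbouring gene Anp, which encodes andropin, a peptide of the male ejaculatory duct, had 394.8 CPM per kb (227.9 to 808.5), above CecA1 in all 18 libraries. CecB had 0 to 9 counts per library and none at all in 7 of the 20 libraries, which allowed up to 0.117 CPM in a library at 0 such as heat-shocked RAL819. It fell below the filter on low counts used for the tests here. In the authors' deposited table its log2 ratio of beneficial to detrimental lines was −2.89 with heat shock (unadjusted p = 0.125) and 1.85 without it (unadjusted p = 0.114), neither with an adjusted p.

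**Figure D1:**
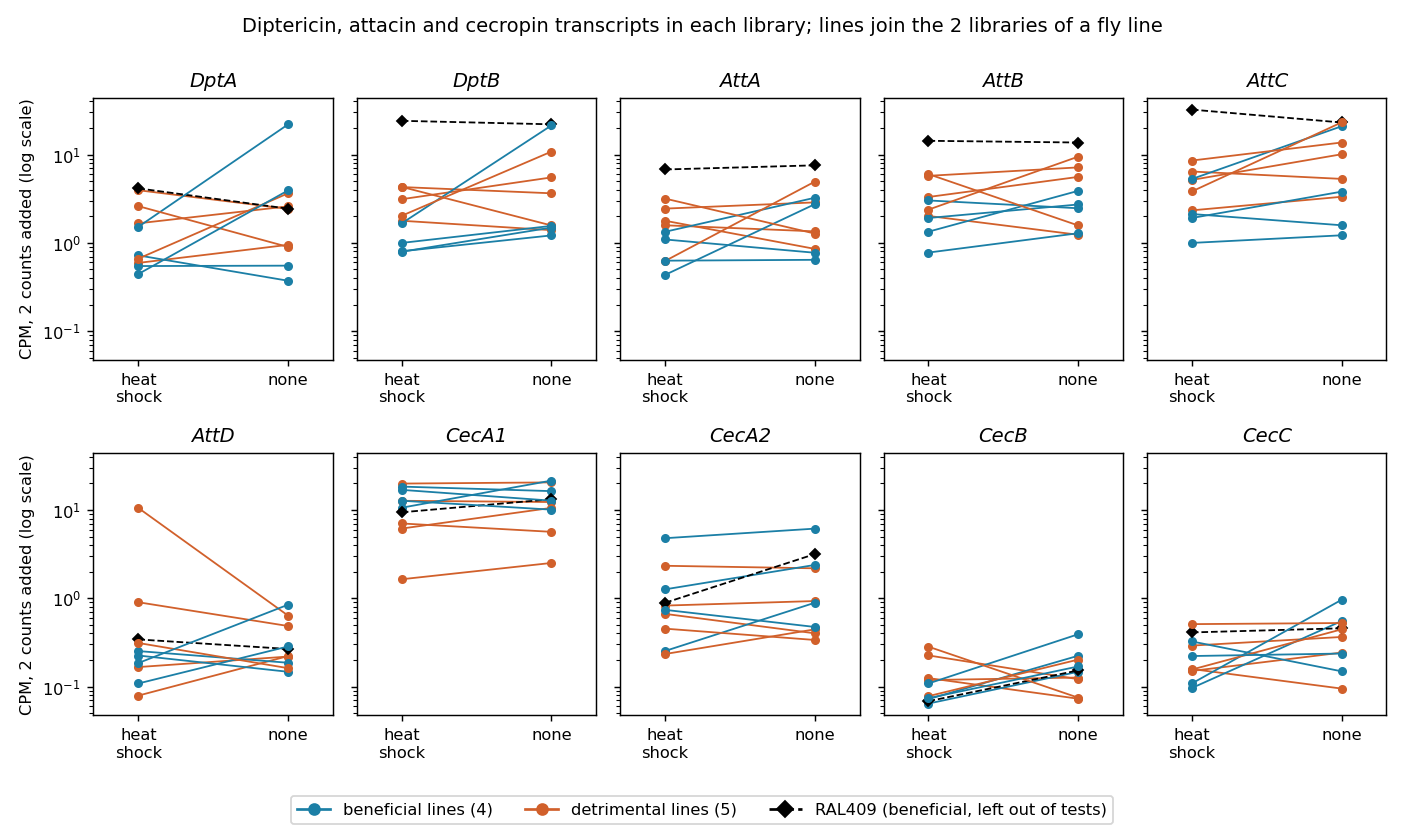
Level of each of the 10 genes in each library, in CPM with 2 counts added, on a log axis, with heat shock at left and none at right, and a line joining both libraries of a fly line (blue, 4 beneficial lines; orange, 5 detrimental lines; black diamonds, RAL409). DptA, DptB and AttC of RAL69 sit at 21.9, 21.3 and 20.8 CPM without heat shock and lower with it, AttD of RAL737 stands alone at 10.4 CPM with heat shock, and CecA1 is lowest in RAL737 under both treatments.

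The comparison of heat shock with none asks whether 30 minutes of heat changed these transcripts. No member passed the test over all 9 lines (0 of 9 tested), where 18.1% of all genes were called, 8.38% as higher and 9.73% as lower (edgeR's quasi-likelihood test, Benjamini-Hochberg adjusted p under 0.05). That was 1196 genes higher and 1389 lower, and scaling by library totals gave 704 and 4296. The main fit had no term for line, so both libraries of a line entered it as separate samples. With line as a block, which compares both libraries of the same inbred line, AttC alone fell (1 of 9 members, against 35.2% of all genes called and 18.9% called as lower). Of the 9 members, 8 had a log2 ratio of heat shock to none below 0, with a median of −0.65 (−0.51 with the block), beside a median of 0.01 over all 14270 genes tested. At an unadjusted p under 0.05, 27.7% of all genes passed, and DptA, DptB and AttC were among them. The biological coefficients of variation of the members in this fit were 0.57 to 1.18, against a median of 0.180 over all genes.

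DptA, whose product is known for defence against Providencia, was at 1.45 CPM in RAL69, 0.370 in RAL93, 0.650 in RAL359 and 0.482 in RAL387 with heat shock, and at 0.514 in RAL195, 1.58 in RAL304, 3.87 in RAL335, 2.49 in RAL737 and 0.585 CPM in RAL819. Without heat shock it was at 21.9 CPM in RAL69, 3.86 in RAL93, 0.298 in RAL359, 0.479 in RAL387, 0.887 in RAL195, 2.52 in RAL304, 2.35 in RAL335, 0.825 in RAL737 and 3.56 CPM in RAL819. The treatments overlapped, and unheated RAL69 stood far above the other 17 libraries. In RAL69 these levels were 40 counts with heat shock (1.45 CPM, 95% exact Poisson interval 1.03 to 1.97, counting error only) and 614 counts without it (21.9 CPM, 20.2 to 23.7). DptA was lower with heat shock in 5 of 9 lines, and its log2 ratio of −1.50 ± 0.67 (SE, n = 9 lines) did not pass in edgeR (adjusted p = 0.152). Without RAL69 the log2 ratio was −0.71.

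DptB, known for defence against Acetobacter, had 1.59 CPM in RAL69, 0.925 in RAL93, 0.722 in RAL359, 0.740 in RAL387, 1.70 in RAL195, 3.04 in RAL304, 4.21 in RAL335, 4.19 in RAL737 and 1.95 CPM in RAL819 with heat shock. Without it, RAL69 had 21.3 CPM, RAL93 1.49, RAL359 1.42, RAL387 1.14, RAL195 1.33, RAL304 5.44, RAL335 3.56, RAL737 1.50 and RAL819 10.7 CPM. As for DptA, unheated RAL69 was highest and the treatments overlapped. DptB was lower with heat shock in 6 of 9 lines, the 4 beneficial lines among them, with a log2 ratio of −1.51 ± 0.57 (SE, n = 9 lines; adjusted p = 0.0799 in edgeR). Its call depended on the tool: the adjusted p was 0.0231 in DESeq2, which called 20.4% of all genes, and 0.0666 in edgeR with line as a block. The log2 ratio was −0.65 without RAL69 (adjusted p = 0.326 in edgeR) and −0.67 with RAL409 included (adjusted p = 0.649 in edgeR).

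AttC, a secreted attacin, was at 5.21 CPM in RAL69, 0.925 in RAL93, 1.84 in RAL359, 2.06 in RAL387, 2.26 in RAL195, 5.08 in RAL304, 6.35 in RAL335, 8.44 in RAL737 and 3.75 CPM in RAL819 with heat shock. Without heat shock the same lines had 20.8, 1.15, 3.73, 1.51, 3.26, 10.0, 5.22, 13.6 and 23.0 CPM. AttC was lower with heat shock in 7 of 9 lines, RAL387 and RAL335 being the exceptions, and 28.1% of all tested genes were lower in at least 7 lines. Its log2 ratio was −1.25 ± 0.53 without a block (SE, n = 9 lines; adjusted p = 0.130 in edgeR). It fell by 0.95 ± 0.29 on the log2 scale with line as a block (adjusted p = 0.0210 in edgeR). That call was lost without RAL69 (log2 ratio −0.71, adjusted p = 0.0748) and with RAL409 included (−0.73, adjusted p = 0.0596).

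AttA had 0.362 to 3.06 CPM with heat shock (median 1.26) and 0.575 to 4.86 CPM without it (median 1.278), and AttB had 0.703 to 5.89 CPM with heat shock (median 2.30) and 1.17 to 9.39 CPM without it (median 2.65). These ranges overlapped almost wholly. Summed, the pair had a log2 ratio of −0.53 ± 0.38 (SE, n = 9 lines; adjusted p = 0.424 in edgeR), with 6 of 9 lines lower after heat shock.

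AttD was detected at a handful of counts in most libraries and was high in a single one. It had 184 counts in heat-shocked RAL737 (10.4 CPM, 95% exact Poisson interval 8.97 to 12.1), against 15 counts in unheated RAL737 (0.563 CPM, 0.315 to 0.928). In the other 8 lines it ran from 0 to 0.827 CPM with heat shock and from 0.0736 to 0.779 CPM without it. Heat-shocked RAL195 had 0 counts, which allows up to 0.119 CPM. The log2 ratio of heat shock to none was 1.14 ± 0.93 (SE, n = 9 lines; adjusted p = 0.504 in edgeR), and only 5 of 9 lines were higher. AttD passed the filter on low counts only with RAL737 included, so no test of AttD was possible without that line. In RAL737, AttA and AttB were also higher with heat shock, at 3.06 and 5.89 CPM, against 1.20 and 1.50 CPM without it. DptA and DptB were higher there too, at 2.49 and 4.19 CPM with heat shock, against 0.825 and 1.50 CPM without it. AttC was lower there, at 8.44 CPM with heat shock and 13.6 CPM without it, as was CecA1, at 1.53 and 2.44 CPM. Heat-shocked RAL737 had the fewest total counts of all libraries (18.4 M).

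CecA1, the most abundant of the cecropins here, was not called with heat shock. With heat shock it was at 16.8 CPM in RAL69, 12.7 in RAL93, 10.5 in RAL359, 18.3 in RAL387, 19.8 in RAL195, 6.95 in RAL304, 12.6 in RAL335, 1.53 in RAL737 and 6.09 CPM in RAL819. Without it the same lines had 12.7, 10.0, 21.4, 16.3, 20.5, 5.59, 12.2, 2.44 and 10.5 CPM. The treatments overlapped almost wholly and RAL737 was lowest under both. The log2 ratio of heat shock to none in CecA1 was −0.09 ± 0.39 (SE, n = 9 lines; adjusted p = 0.944 in edgeR). With line as a block it was −0.10 ± 0.15, with a 95% interval of −0.43 to 0.22.

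CecA2 had 0.156 to 4.73 CPM with heat shock and 0.263 to 6.08 CPM without it, RAL387 being highest in both. Its log2 ratio of heat shock to none was −0.19 ± 0.66 (SE; adjusted p = 0.928 in edgeR). CecC had 1 to 7 counts per library with heat shock and 1 to 25 without it, with a log2 ratio of −1.16 ± 0.56 (SE; adjusted p = 0.193 in edgeR). It was lower in 7 of 9 lines, where 28.1% of all tested genes were lower in at least 7 lines. Some of these lines differed by few counts, such as RAL93 with 4 counts with heat shock and 5 without it. Anp had 159.7 ± 65.8 CPM with heat shock and 161.7 ± 57.3 CPM without it (SD, n = 9 lines each).

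**Figure D2:**
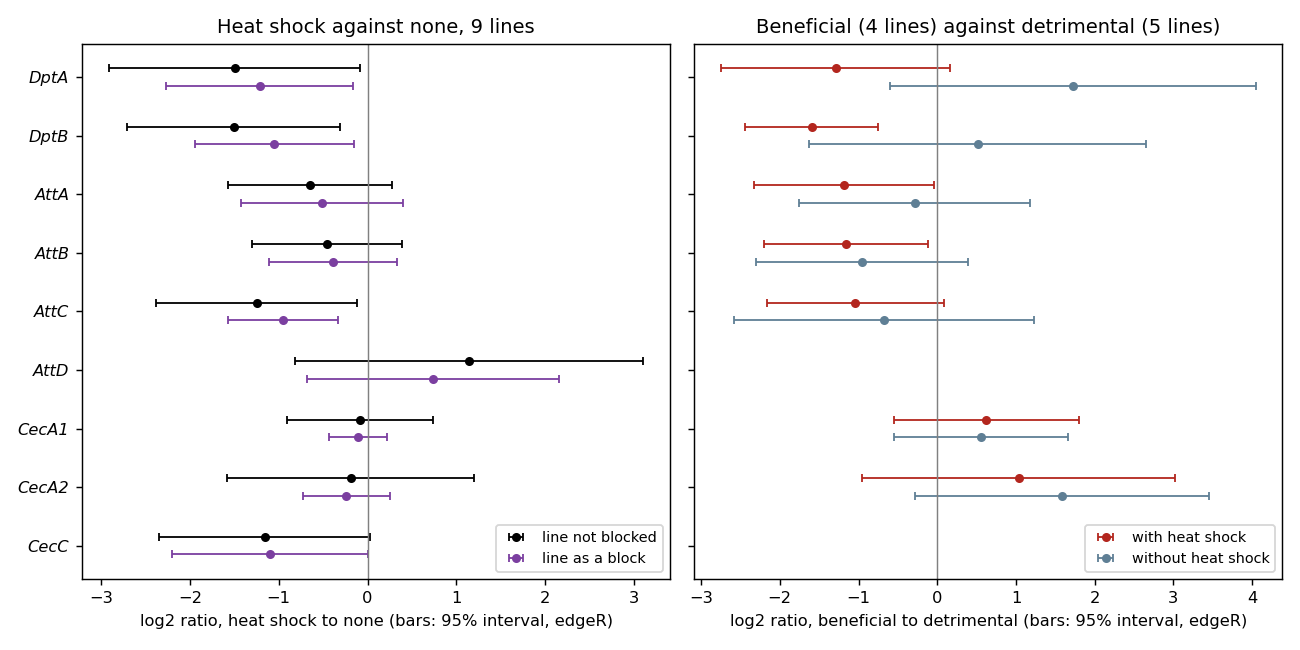
Log2 ratios from edgeR with 95% intervals for each tested gene: left, heat shock to none over 9 lines without a block (black) and with line as a block (purple); right, beneficial to detrimental lines with heat shock (red) and without it (grey-blue). AttD and CecC fell below the filter on low counts in the class tests, CecA1 has the narrowest interval with the block at −0.43 to 0.22, and DptB with heat shock lies at −1.60 in the class comparison.

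The comparison of beneficial with detrimental lines within each treatment is the one the series' design names. With heat shock, 7 members were tested and none was called, as was no gene of 13877 in edgeR (0% called). At an unadjusted p under 0.05, 4.40% of all genes passed in edgeR, and DESeq2 called 11 genes (0.0796%), none of them a member. The 5 tested diptericins and attacins had lower values in beneficial lines and the 2 tested cecropins had higher ones, with a median log2 ratio over members of −1.16 beside −0.00 over all genes.

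With heat shock, DptB averaged 0.995 ± 0.409 CPM in beneficial lines (SD, n = 4) and 3.02 ± 1.19 CPM in detrimental lines (SD, n = 5). The classes did not overlap, the highest beneficial line being RAL69 at 1.59 CPM and the lowest detrimental line RAL195 at 1.70 CPM. Such a gap was found with beneficial lines lower for 0.670% of all tested genes, and with beneficial lines higher for 0.742%. DptB had a log2 ratio of −1.60 ± 0.38 (SE), an unadjusted p of 0.00173 and an adjusted p of 0.999 in edgeR, with a DESeq2 adjusted p of 0.0669. In the authors' deposited table DptB had −1.63 ± 0.396 with an adjusted p of 0.044. It was among 15 genes under 0.05 there, of 14927 genes with an adjusted p. RAL409, also a beneficial line, had 24.0 CPM of DptB with heat shock, above all 9 others, and including it turned the log2 ratio to 0.90.

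DptA, AttA, AttB and AttC had log2 ratios of beneficial to detrimental lines of −1.29, −1.18, −1.16 and −1.04 with heat shock, and the classes overlapped for each. With RAL409 included AttA, AttB and AttC turned to 0.12, 0.15 and 0.72, and DptA became −0.36. When each line was left out in turn, these ratios ran from −1.84 to −0.79 for DptA, −1.48 to −0.93 for AttA, −1.57 to −0.90 for AttB and −1.68 to −0.76 for AttC. In beneficial lines CecA1 averaged 14.6 ± 3.61 CPM (SD, n = 4), against 9.41 ± 7.04 CPM in detrimental ones (SD, n = 5), a log2 ratio of 0.62 ± 0.53 (SE). CecA2 averaged 1.69 ± 2.07 CPM in the beneficial class, against 0.817 ± 0.836 CPM in the detrimental class, and its log2 ratio of 1.04 became −0.28 without RAL387.

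Without heat shock the classes overlapped for all 7 tested members (of all genes, 0.603% had beneficial lines lower without overlap and 0.668% higher), and no member and no gene of 13770 was called in edgeR (0% called, 4.18% at an unadjusted p under 0.05; DESeq2 called 17 genes, 0.124%, none of them a member). DptA averaged 6.63 ± 10.3 CPM in the 4 beneficial lines, against 2.03 ± 1.17 CPM in the 5 detrimental ones (SD), a log2 ratio of 1.73 ± 1.04 (SE). RAL69 set that direction, since the log2 ratio was −0.39 without it. DptB behaved alike, at 0.51 with RAL69 and −1.73 without it. The other log2 ratios were −0.28 for AttA, −0.96 for AttB, −0.68 for AttC, 0.56 for CecA1 and 1.59 for CecA2. Single lines moved them: AttC became −2.37 without RAL69 and −0.23 without RAL819, CecA2 became 0.56 without RAL387 and 2.41 without RAL195, AttB became −0.59 without RAL819, and CecA1 became 0.31 without RAL737 and 0.98 without RAL195. AttA turned to 0.23 without RAL819 and to 0.02 without RAL93. With RAL409 included AttA turned to 0.42, and AttB and AttC became −0.06 and −0.13.

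The heat responses of the classes were then compared directly. No member and no gene passed in edgeR, with or without the block, and DESeq2 called none either (0% of 14270 called; 0.294% at an unadjusted p under 0.05 without the block and 2.37% with it, 0.280% in DESeq2). The difference between classes in the log2 heat response was −3.00 ± 1.35 for DptA and −4.30 ± 1.86 for AttD without the block (SE; unadjusted p = 0.0406 and 0.0337, adjusted p = 1 for both in edgeR). With line as a block it was −2.16 ± 0.99 and −3.30 ± 1.26 (SE; unadjusted p = 0.0495 and 0.0224, adjusted p = 0.9996 for both in edgeR). Without RAL69 that of DptA was −1.46, or −0.88 with the block. AttD could not be tested without RAL737. Fitted differences come from models of the counts, and the per-line values below average log2 ratios, so their sizes differ. Per line, the log2 difference between heat shock and none in DptB averaged −1.46 ± 1.49 in beneficial lines (SD, n = 4, lower in 4) and −0.24 ± 1.46 in detrimental lines (SD, n = 5, lower in 2). RAL69 had −3.68, and the other 3 beneficial lines had −0.64, −0.91 and −0.60. The fitted difference between classes in the response of DptB was −2.09 without the block, and it became −0.18 without RAL69 and −0.17 with RAL409 included. With line as a block it was −1.56, or −0.42 without RAL69. For AttC the average was −0.71 ± 1.03 in beneficial and −0.89 ± 1.06 in detrimental lines. For AttD it was −0.63 ± 1.38 in beneficial and 0.80 ± 2.08 in detrimental lines, with 4.05 in RAL737.

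**Figure D3:**
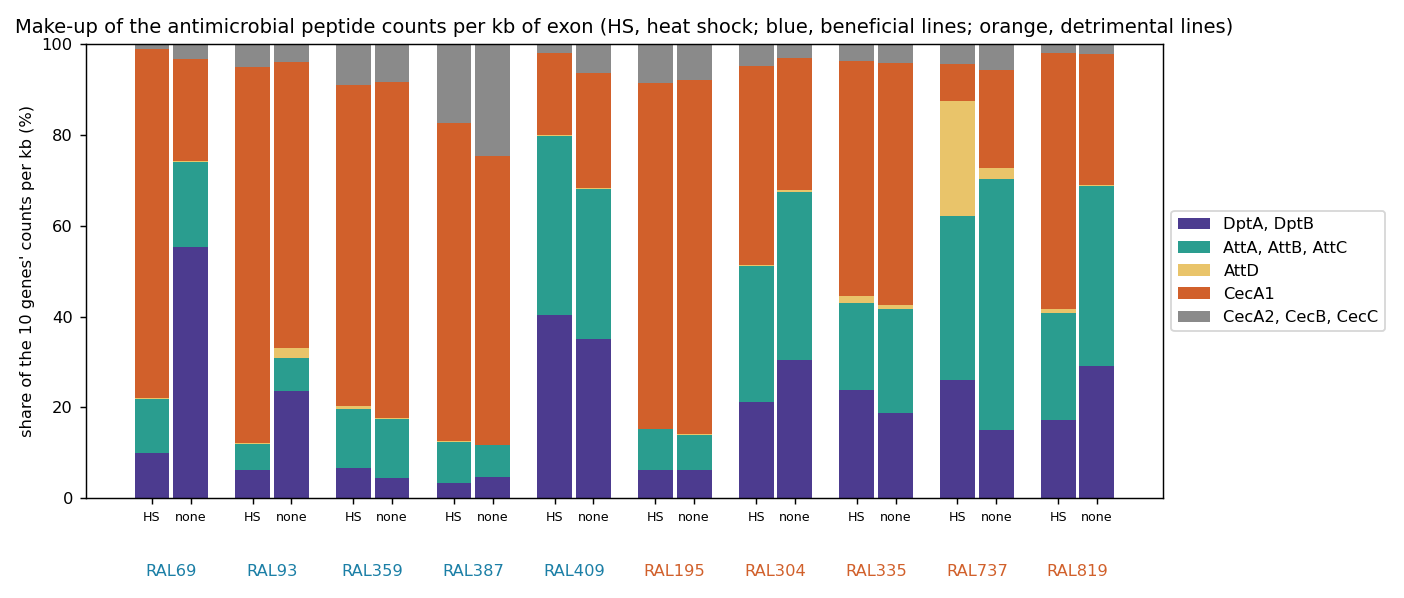
Share of the 10 genes' counts per kb of exon, in percent, in each library, with heat shock (HS) left of none for each line, beneficial lines at left. CecA1 makes up 82.8% in heat-shocked RAL93 and 8.17% in heat-shocked RAL737, where AttD holds 25.4%.

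Lines differed in most of the members. In a test of all line differences with treatment as a covariate, 7 of 9 tested members were called, where 63.6% of all genes were called (edgeR, adjusted p under 0.05), so the count alone is near the background. The called members were CecA2 (adjusted p = 2.06e-05), CecA1 (0.000165), AttC (0.00143), AttD (0.00443), DptA (0.0258), DptB (0.0291) and AttB (0.0459), all from edgeR. The AttD call could not be checked without RAL737, since AttD then fell below the filter on low counts. AttA and CecC did not pass, and the sum of AttA and AttB did not either (adjusted p = 0.132 in edgeR). AttA passed with RAL409 included (adjusted p = 0.0236 in edgeR). The AttB call was lost when any of RAL93, RAL195, RAL304 or RAL335 was left out (adjusted p = 0.052 to 0.134 in edgeR). With a line left out, the highest adjusted p of DptA was 0.12 without RAL69 and that of DptB 0.0622 without RAL387, both in edgeR. Without RAL335 only 5 members were called, so a diptericin call was lost there besides that of AttB.

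The spread between lines was large for these genes. The SD over 9 lines of log2 CPM was 0.784 to 2.12 for the tested members with heat shock and 0.909 to 1.79 without it, beside medians of 0.259 and 0.233 over 14270 genes. Every tested member exceeded at least 90.1% of genes in both treatments. Counts were low for several of them (1 to 25 for CecC), and the part of counting error in this SD was not tested. AttD was the most variable with heat shock (2.12, above 99.5% of genes) and DptA without it (1.79, above 98.8%). The AttD value rests on RAL737, the line without which AttD fell below the filter on low counts. For CecA1, with 27 to 646 counts per library, the SD was 1.123 with heat shock and 0.975 without it.

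**Figure D4:**
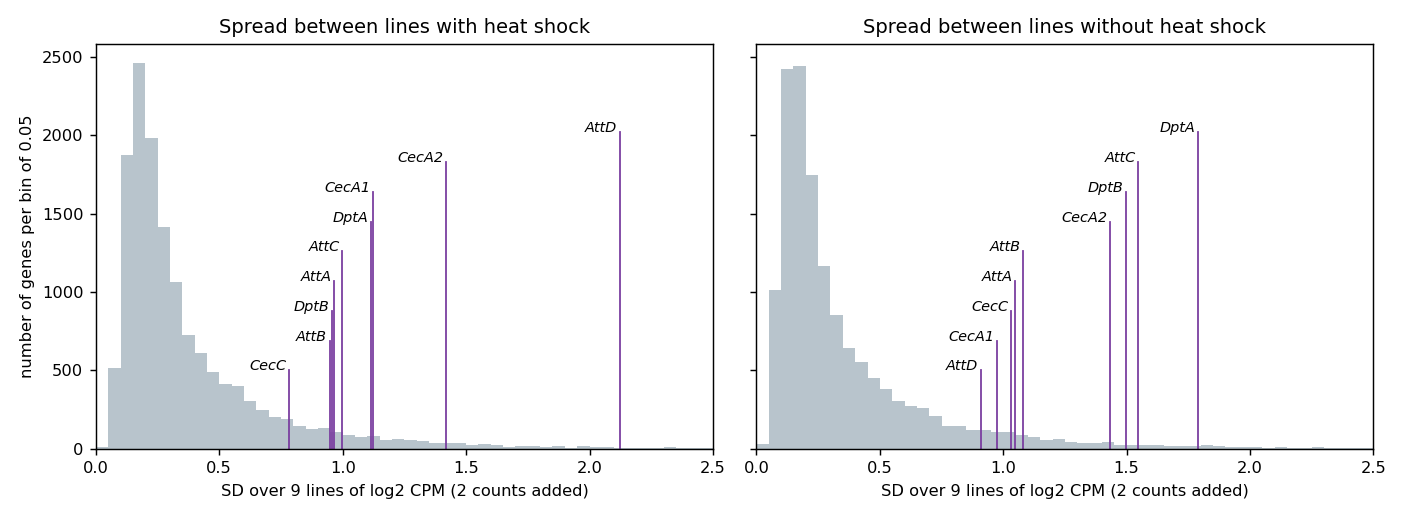
Number of genes (grey bars, bins of 0.05) by the SD over 9 lines of log2 CPM with 2 counts added, with heat shock at left and without it at right; purple stalks mark the 9 tested members and their height has no meaning. The members stand to the right of the bulk, from 0.784 to 2.12 and from 0.909 to 1.79; the axis ends at 2.5, past which lie 28 genes with heat shock and 35 without it.

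The make-up of the peptide transcripts also differed between lines. Per kb of exon, CecA1 held 76.1% of the members' counts in heat-shocked RAL195 and 77.9% in unheated RAL195. In RAL737 it held 8.17% with heat shock and 21.7% without it, and AttA, AttB and AttC together held 36.1% with heat shock and 55.3% without it. In RAL387, CecA2, CecB and CecC held 17.3% with heat shock and 24.6% without it, the largest such shares of all 20 libraries. The diptericins and AttA to AttC together exceeded CecA1 per kb in 2 of 9 lines with heat shock and in 4 of 9 without it. In RAL69, DptA and DptB held 10.0% with heat shock and 55.3% without it.

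Whether members were high in the same lines was asked over 9 lines, with 56 relations computed (28 pairs in each treatment, exact permutation tests, two-sided). None passed the adjustment over all 56. The pairs named first were picked for a small p in either treatment. With heat shock, DptA and AttC had a Pearson r of 0.883 (permutation p = 0.00243, adjusted p = 0.0756) and a Spearman rho of 0.867 (permutation p = 0.00451, adjusted p = 0.113), and r was 0.862 without the 2 lines farthest from the median of DptA. Without heat shock the same pair had r = 0.478 and rho = 0.333 (permutation p = 0.192 and 0.385, adjusted p = 0.383 and 0.526), and r = 0.232 without the 2 farthest lines. DptA and DptB had r = 0.845 and rho = 0.717 with heat shock (permutation p = 0.00593 and 0.0369, adjusted p = 0.0831 and 0.188), and r = 0.647 without the 2 farthest lines. Without heat shock they had r = 0.841 and rho = 0.733 (permutation p = 0.00398 and 0.0311, adjusted p = 0.0756 and 0.188), and r = 0.678 without the 2 farthest lines. DptB and AttC had r = 0.858 and rho = 0.85 with heat shock (permutation p = 0.00405 and 0.00607, adjusted p = 0.0756 and 0.113), and r = 0.745 without the 2 farthest lines. Without heat shock DptB and AttC had r = 0.781 and rho = 0.833 (permutation p = 0.0136 and 0.00827, adjusted p = 0.144 and 0.116), and r = 0.54 without the 2 farthest lines. CecA1 and CecA2 had r = 0.757 and rho = 0.917 without heat shock (permutation p = 0.0175 and 0.00131, adjusted p = 0.144 and 0.0735), and r = 0.804 without the 2 farthest lines. With heat shock they had r = 0.478 and rho = 0.633 (permutation p = 0.199 and 0.076, adjusted p = 0.384 and 0.25), and r = 0.364 without the 2 farthest lines. The part of reads that match both copies in these values was not tested. Weaker pairs were also found. Without heat shock DptA and AttA had r = 0.254 and rho = 0.0167 (permutation p = 0.52 and 0.982, adjusted p = 0.696 and 0.982). DptA and Anp had r = −0.747 and rho = −0.8 without heat shock (permutation p = 0.018 and 0.0138, adjusted p = 0.144 and 0.155). With heat shock DptA and Anp had r = −0.161 and rho = −0.383 (permutation p = 0.679 and 0.312, adjusted p = 0.76 and 0.473). For CecA1 and DptA r was −0.434 and rho −0.533 with heat shock (permutation p = 0.25 and 0.148, adjusted p = 0.415 and 0.295), and r was −0.267 without the 2 farthest lines. Without heat shock r was −0.122 and rho −0.4 (permutation p = 0.735 and 0.291, adjusted p = 0.792 and 0.453), and r was −0.0631 without the 2 farthest lines.

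RAL409 had the highest levels of DptB, AttA and AttB under both treatments. Its DptB was at 24.0 CPM with heat shock and 21.9 CPM without it, and its AttC at 32.2 CPM with heat shock and 23.0 CPM without it. AttB was at 14.2 CPM with heat shock and 13.6 CPM without it, and AttA at 6.71 CPM with heat shock and 7.47 CPM without it. These exceeded the other 9 lines except for AttC without heat shock, where RAL819 also had 23.0 CPM. Its DptA was the highest with heat shock at 4.07 CPM, and within the range of the other lines without it at 2.36 CPM. Its CecA1, at 9.35 CPM with heat shock and 13.2 CPM without it, also lay within that range, as did its CecA2.

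Genes that carry the Imd signal moved both ways with heat shock. Of 16 tested, 2 rose and 5 fell (4 and 7 with line as a block), with a median log2 ratio of −0.08. Over all genes 8.38% rose and 9.73% fell, and with the block 16.3% rose and 18.9% fell. The receptor PGRP-LC rose to 70.8 ± 11.4 CPM with heat shock, against 45.3 ± 6.24 CPM without it (SD, n = 9 lines; log2 0.64 ± 0.11, adjusted p = 0.000316 in edgeR), and was higher in 9 of 9 lines. The caspase Dredd fell to 13.2 ± 1.81 CPM, against 24.0 ± 2.97 CPM without heat shock (log2 −0.86 ± 0.09, adjusted p = 1.98e-06 in edgeR), in 9 of 9 lines. The kinase Tak1 fell by 0.32 ± 0.08 and the intracellular receptor PGRP-LE by 0.24 ± 0.06 on the log2 scale (adjusted p = 0.00591 and 0.0114 in edgeR). Rel, which encodes Relish, had 120.1 ± 17.2 CPM with heat shock and 103.1 ± 16.3 CPM without it, and passed only with line as a block (log2 0.22 ± 0.06, adjusted p = 0.0101 in edgeR, against 0.201 without it).

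Of 13 tested inhibitors of the pathway, 1 rose and 4 fell (1 and 7 with the block), with a median log2 ratio of −0.30, beside the same shares of all genes (8.38% and 9.73%, or 16.3% and 18.9% with the block). pirk, which keeps PGRP-LC from signalling, fell to 3.72 ± 0.640 CPM with heat shock, against 12.7 ± 5.15 CPM without it (SD, n = 9 lines; log2 −1.78 ± 0.22, adjusted p = 1.19e-05 in edgeR). dnr1, an inhibitor of Dredd, rose to 85.1 ± 14.8 CPM, against 62.4 ± 7.05 CPM without heat shock (log2 0.45 ± 0.10, adjusted p = 0.00362 in edgeR). POSH, a ubiquitin ligase that acts on Tak1, fell by 0.48 ± 0.09 and the homeobox factor cad, which holds down peptide genes in the gut, by 0.30 ± 0.06 (adjusted p = 0.00106 and 0.000892 in edgeR).

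Among 5 tested antimicrobial peptides outside the 3 families, 1 rose and none fell, with and without the block. Over all genes 8.38% rose and 9.73% fell, and with the block 16.3% rose and 18.9% fell. Listericin rose to 17.6 ± 5.17 CPM with heat shock, against 10.9 ± 4.06 CPM without it (SD, n = 9 lines; log2 0.70 ± 0.21, adjusted p = 0.0275 in edgeR), in 9 of 9 lines. Dro, the neighbour of AttA, had 1.86 ± 2.22 CPM with heat shock and 2.58 ± 2.55 CPM without it, and metchnikowin (Mtk) had 2.92 ± 1.64 CPM with heat shock and 5.76 ± 6.53 CPM without it. Neither passed. Between classes or between their heat responses, no gene of these 3 lists was called in edgeR.

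Beside these values, fat body markers had 1 rise (bmm) and 1 fall (FASN1) among 8 tested with heat shock, and hemocyte markers had 2 falls (crq and srp) among 8. With line as a block apolpp also fell among the fat body markers (adjusted p = 0.0309 in edgeR) and eater among the hemocyte markers (adjusted p = 0.0286 in edgeR). The shares over all genes were 8.38% higher and 9.73% lower, or 16.3% and 18.9% with the block. Fat body markers summed to 2785 to 4613 CPM with heat shock and 2681 to 5435 CPM without it, and hemocyte markers to 165 to 342 CPM with heat shock and 209 to 349 CPM without it, over the 9 lines. None of 10 gut enzyme genes and none of 6 accessory gland genes was called (2 gut enzyme genes fell with the block). No marker of either list was at 0 in all 9 lines. Their part in the members' values was not tested. The line with the highest unheated DptA and DptB, RAL69 among the 9, had the lowest hemocyte sum of them in both treatments. Its DptA and DptB were high only without heat shock (21.9 and 21.3 CPM, against 1.45 and 1.59 CPM with it). RAL819 had the highest unheated AttA, AttB and AttC of the 9 lines (4.86, 9.39 and 23.0 CPM). It had the lowest fat body sum of them in both treatments (2785 CPM with heat shock and 2681 CPM without it). Both lines were picked by their peptide values. A relation between hemocyte or fat body sums and members over the lines was not tested.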

How the data were processed

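Messenger RNA was sequenced with a stranded kit per the labels' protocols. The authors deposited whole-number counts per FlyBase gene, and 2 class comparison tables (RAL409 left out) whose columns hold log2 ratios and p-values, per the file headers. The submitters' processing notes name BDGP6, Bowtie2 2.2.9, SAMtools 1.12 and DESeq2 1.28.1. The counting tool is not given in the sources used here. Names and positions came from Ensembl release 115 (BDGP6), which matched 17710 of 17807 identifiers and left 97 unmatched.

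CPM are counts divided by TMM-scaled totals over 20 libraries. Per-library log2 values had 2 counts added. Tests used R 4.3.3 and edgeR 4.0.16 (filterByExpr, TMM, quasi-likelihood), adjusted over all genes tested, on 18 libraries of 9 lines. The main fits of the heat response and of its difference between classes had no term for line. Both libraries of a line thus entered them as separate samples, and the pairing was used only with line as a block. The SE of heat ratios are from the main fit unless the block is named. Alternatives were DESeq2 1.42.0, other scalings and filters, a threshold of 0.1, RAL409 included, line as a block and each line left out. The line names pair the libraries: both libraries of an inbred line deviated together (r = 0.548 to 0.801 over 9 lines, against −0.342 to 0.117 between 72 pairs of different lines). Counting intervals are exact Poisson intervals at 95%, and a count of 0 was read as allowing 3 counts. Both cover counting error only, since reads carry no molecular identifiers.

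Every member was named. Pathway genes were named by smallest p among those called (up to 4 per list). Rel, Dro, Mtk and the genes called among markers were named after their values were seen. Members and lists were chosen with earlier results of these data known. A motif search of promoters was not run, since no sequence was used here.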

Additional observations from a re-analysis of the deposited data

Results flagged for a closer look

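In 40 groups of 5 libraries (10 genes, 2 classes, 2 treatments, RAL409 included), 11 held a library that stood apart from the other 4. Standing apart means a large gap in CPM to the next library, relative to the range of the group. The rule marks about 1 in 20 groups when values are independent and normally distributed. CPM here were skewed and the groups shared lines, so the count of 11 cannot be set against chance. Unheated RAL69 stood apart for DptA at 21.9 CPM. Heat-shocked RAL409 stood apart for DptB (24.0 CPM), AttA (6.71 CPM), AttB (14.2 CPM) and AttC (32.2 CPM), and unheated RAL409 for AttB (13.6 CPM). AttD stood apart in heat-shocked RAL737 (10.4 CPM) and in unheated RAL93 (0.779 CPM). CecA2 stood apart in heat-shocked RAL387 (4.73 CPM) and heat-shocked RAL195 (2.26 CPM). CecB stood apart in heat-shocked RAL69 only because a single count there (0.0362 CPM) faced 0 in the other 4 beneficial lines.

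RAL409, omitted from the main tests, exceeded the other 9 lines in 8 of its 20 member values. With heat shock the highest values were DptA (4.07 CPM), DptB (24.0 CPM), AttA (6.71 CPM), AttB (14.2 CPM) and AttC (32.2 CPM). Without heat shock they were DptB (21.9 CPM), AttA (7.47 CPM) and AttB (13.6 CPM).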

How the results depend on the processing

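The number of members called with heat shock, 0, became 1 in DESeq2 (DptB), 1 with line as a block (AttC), 1 at a threshold of 0.1 and 2 under scaling by library totals (DptB and AttC). It stayed at 0 whichever line was left out without the block, and ran from 0 to 3 with the block. Scaling by totals moved the median log2 ratio of all genes by −0.20. The number of genes called, 2585, became 5000 under library totals, 5026 with the block and 5101 with the block and RAL409, and leaving out a line gave 2181 to 2357 without the block and 4405 to 4889 with it. With line as a block, DptA was also called without RAL335 (adjusted p = 0.0493), RAL359 (0.0268) or RAL737 (0.0313), DptB without RAL737 (0.0241) and CecC without RAL359 (0.0238), all in edgeR. The block changed no other member's call with heat shock, and none in the difference between responses. DESeq2 called 17 genes between classes without heat shock and 11 with it, against 0 in edgeR. With RAL409 included, log2 ratios of beneficial to detrimental lines reversed to 0.42 for AttA without heat shock, and with heat shock to 0.90 for DptB, 0.12 for AttA, 0.15 for AttB and 0.72 for AttC. The difference between responses reversed to 0.21 for AttB, 0.85 for AttC (0.42 with the block) and −0.00 for CecA1. Leaving out a line, the heat ratio of CecA1 ran from −0.15 to 0.02 without the block and from −0.17 to −0.01 with it. The class ratio without heat shock ran from −0.39 to 2.12 for DptA, −1.73 to 1.11 for DptB and −0.71 to 0.23 for AttA, and with heat shock from −0.28 to 1.87 for CecA2. The difference between responses ran from −0.70 to 0.25 for AttB, −0.90 to 0.70 for AttC and −0.08 to 0.40 for CecA1 without the block, and from −0.87 to 0.09, −0.48 to 0.59 and −0.02 to 0.45 for these genes with it. The cause of these changes was not tested. AttD, CecB and CecC were limited by counts.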

Other observations

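Over the 9 unheated lines, the 5 genes whose log2 CPM followed the mean of 7 members most closely, of 12705 genes with a mean of at least 1 CPM, were CG2310 (r = 0.930), CG33946 (0.906), capt (0.902), be (0.896) and Dtg (0.890). With heat shock their r values over the same lines were 0.203, 0.127, 0.131, 0.169 and −0.0403. The unheated r values are the highest of many, so they are a description. Over the unheated lines CG2310 ran from 6.50 to 9.97 CPM, CG33946 from 1.69 to 5.75 and capt from 85.7 to 119.0 CPM. be ran from 24.75 to 36.7 CPM and Dtg from 1.29 to 2.46 CPM, beside 0.298 to 21.9 CPM for DptA.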
